A study of Drosophila melanogaster with 36 samples.

Results

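The genes described here belong to the apoptosis and c-Jun N-terminal kinase (JNK) pathways of the fly: rpr, hid, Diap1, Dronc, Debcl, puc and egr. They were chosen by symbol, and each gene was read from the probe set of highest mean among those that the platform annotation pairs with that symbol alone. Of the 7 genes, 4 had such a probe set, namely Dronc, Debcl, puc and egr, out of 11982 genes represented on the array. The genes rpr, hid and Diap1 were not analysed here. For egr a second, dimmer probe set was also read, so 5 of the 18769 probe sets tested carry the results on these genes.

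The samples were heads of adult Drosophila melanogaster, measured on Affymetrix expression arrays in 4 genotypes and on 3 days, with 3 arrays per group of genotype and day. Flies of the Control genotype had the GMR-Gal4 driver and a temperature-sensitive Gal80 repressor, Atro flies expressed a transgene of wild-type Atrophin, and A66QC and A75QN flies each expressed a transgene of Atrophin with an expanded polyglutamine (polyQ) tract. The series' design text names the same GMR-Gal4 driver and Gal80 repressor for all 3 transgenes. All flies developed at 18 C, at which the transgenes are held off according to that text, and newly eclosed adults were taken at once (day 0) or after 2 or 14 days at 29 C, at which the transgenes are on. Day 0 therefore compares the lines before the switch, although the sample labels call the transgene expressed on that day too. Each RNA sample came from 20 heads. GMR-Gal4 acts in the eye, so most other cells of the head do not receive the transgene, and whole heads were profiled. Each mutant genotype is given as 1 transgene, and the labels do not say whether the 3 samples of a group came from separate cultures, so the p-values measure the spread between these samples, which may be partly technical.

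In flies, programmed cell death is set off by rpr, hid, grim and skl, whose proteins bind the inhibitor Diap1 and free the initiator caspase Dronc, which works with the adaptor Dark. Debcl and Buffy are the 2 Bcl-2 family proteins of the fly, Debcl being pro-apoptotic and Buffy mostly protective. Eiger (egr) is the tumour necrosis factor of the fly; through the receptors Wengen (wgn) and Grindelwald (grnd) it switches on the JNK cascade, which ends in the kinase Basket (bsk). Puckered (puc) is a phosphatase that is induced by JNK signalling and shuts it down, so its transcript is widely used as a readout of the pathway. In the developing eye, forced expression of hid, rpr or egr under GMR control ablates tissue.

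After 14 days with the transgene on, Debcl was lower in both polyQ lines than in Control and than in Atro, by 0.32 to 0.40 on the log2 scale. The ligand gene egr was lower in A75QN than in Control, and lower in both polyQ lines than in Atro. Neither puc nor Dronc differed from Control in any line on any day as deposited, and no gene of the 4 was higher in a polyQ line than in Control or Atro. That last statement depends on the scaling: after quantile normalization 6 differences passed as higher in a polyQ line, with Dronc in A66QC against Control (0.20) and puc in A75QN against Atro (0.28) at day 14. The others were against Control on earlier days: Debcl in A66QC at day 0, egr in A75QN at days 0 and 2 and egr in A66QC at day 2. Over time, as deposited, puc rose in Control and A75QN heads, and Debcl rose in Control and Atro heads. In the same values egr fell in A75QN heads and Dronc fell in Atro heads.

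Values are the authors' log2 expression values, and differences are differences of group means of 3 arrays, given as log2 difference ± standard error. Each difference was tested in 1 limma model over all 36 arrays and 18769 probe sets with Benjamini-Hochberg adjustment, and a gene is said to have risen, fallen, passed the test or differed where the adjusted p was under 0.05. Array medians lay between 6.34 and 6.403, and near background below means a group mean lower than 6.403. A fitted difference from such a group depends on the background signal and is not a measured ratio. The number of arrays limits the precision. Array spread was not the same in all groups: at day 14 the standard deviation over probe sets was 1.58 to 1.67 on Control arrays, 1.57 to 1.59 on Atro arrays, 1.501 to 1.53 on A66QC arrays and 1.48 to 1.55 on A75QN arrays. The difference between the 3′ and 5′ probe sets of the glycolytic gene GAPDH, a measure of RNA integrity, averaged 1.81 at day 14 in Control heads and 2.10, 2.16 and 1.99 in those of Atro, A66QC and A75QN. At day 0 it averaged 1.51, 1.56, 1.63 and 1.57 in the same order, so changes since day 0 coincide with a rise in it in every genotype. Poly-A spike-in controls read 13.16 to 13.40 on the 6 arrays of A75QN days 2 and 14 and 10.17 to 10.83 on the other 30. The changes in A75QN since day 0 therefore coincide with a difference in spike-in reading. The same holds for the differences of A75QN from other genotypes at days 2 and 14. The part of these quantities in the results was not tested beyond the normalizations reported beside them.

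**Figure D1:**
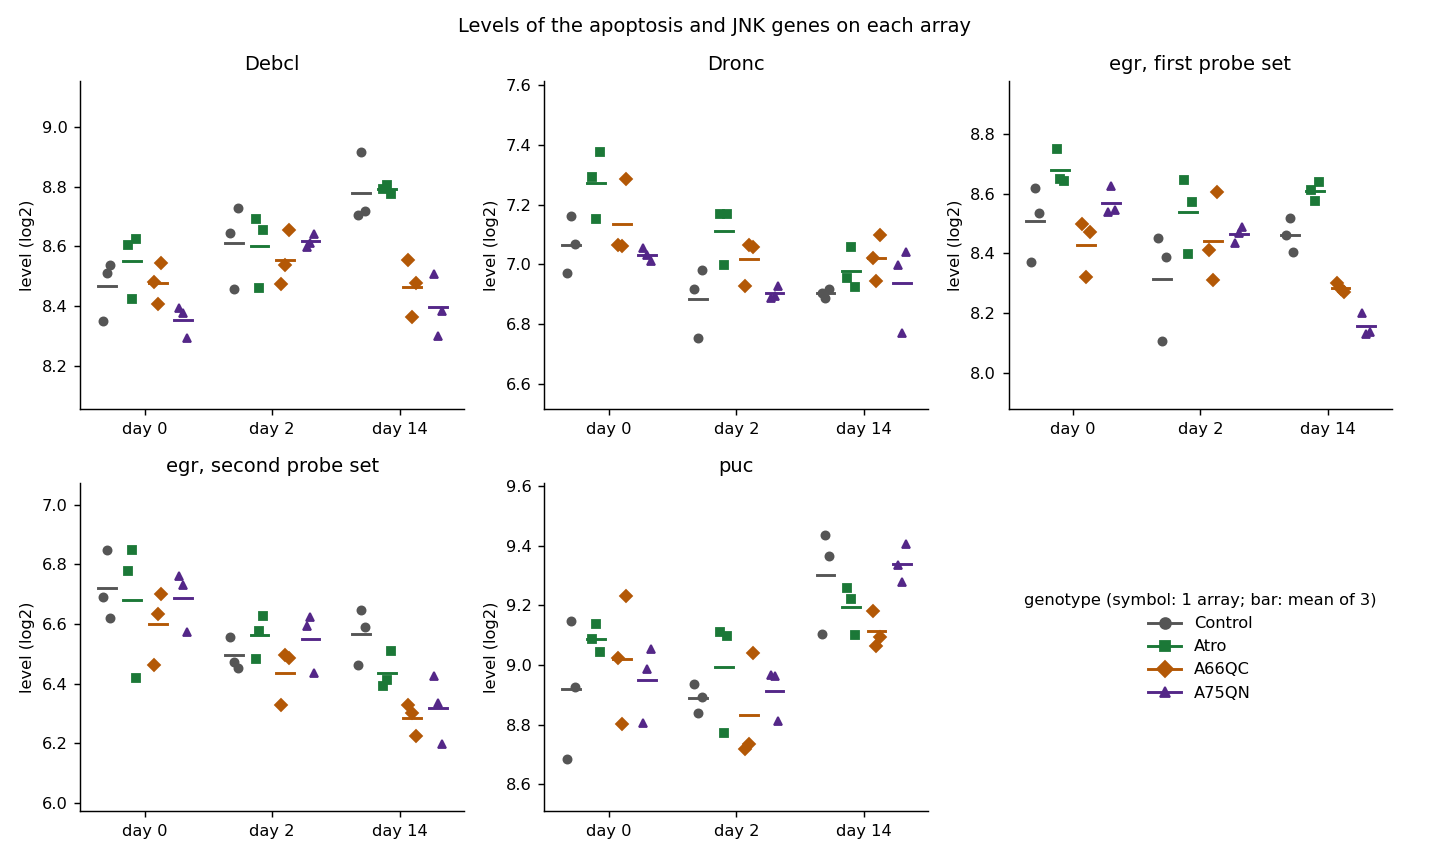
Level (log2) of Debcl, Dronc, puc and both probe sets of egr on every array, by day and genotype; each symbol is 1 array and each bar the mean of 3. At day 14 all A66QC and A75QN arrays lie below all Control arrays for Debcl and for both egr probe sets. Over all probe sets, arrays stood apart from Control in 39% for A66QC and 33.9% for A75QN.

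Debcl, the pro-apoptotic Bcl-2 family gene, was bright, with a mean over all arrays higher than 82.5% of probe sets. At day 14 the Control arrays read 8.70, 8.92 and 8.72, and the Atro arrays 8.79, 8.81 and 8.78. The A66QC arrays read 8.55, 8.36 and 8.48, and the A75QN arrays 8.51, 8.30 and 8.38. Every polyQ array lay below every Control and Atro array on that day, while Control and Atro overlapped. Over all probe sets, arrays stood apart in 39% for A66QC and Control, 33.9% for A75QN and Control, 36.9% for A66QC and Atro, and 34.7% for A75QN and Atro.

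At day 14 Debcl was lower in A66QC than in Control by a log2 difference of -0.32 ± 0.07 (limma, adjusted p = 0.00321), a level of 0.804 times Control. In A75QN it was lower by -0.38 ± 0.07 (limma, adjusted p = 0.000499), or 0.767 times Control. Against Atro the differences were -0.33 ± 0.07 in A66QC (limma, adjusted p = 0.00508) and -0.40 ± 0.07 in A75QN (limma, adjusted p = 0.00043). The gene therefore stood lower in the polyQ lines than in flies with the wild-type transgene as well, while Atro itself differed from Control by 0.01 (95% interval -0.14 to 0.16). Over the array 1.37% of probe sets passed as lower in all 4 of these comparisons. The differences from Control share the same 3 Control arrays, and those from Atro the same 3 Atro arrays. Quantile normalization, which gives all arrays the same spread, brought the A66QC and A75QN differences from Control to -0.14 and -0.24 (limma, adjusted p = 0.0163 and 4.23e-05). The A66QC difference from Control missed the threshold without Control day 14 replicate 2 (adjusted p = 0.0525), and that from Atro without A66QC day 14 replicate 2 (adjusted p = 0.0629).

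On earlier days the lines lay closer together in Debcl. At day 0 the 12 arrays of the 4 genotypes read between 8.29 (A75QN) and 8.62 (Atro), and at day 2 between 8.46 and 8.73. The differences of the 3 lines from Control at days 0 and 2 ranged from -0.11 to 0.08, and none passed the test as deposited. Under quantile normalization A66QC was higher than Control at day 0 by 0.13 (limma, adjusted p = 0.0285). Other settings gave lower calls. A75QN was lower than Control at day 0 without the 6 arrays of outlying spread (-0.17, limma, adjusted p = 0.0485). With array weights A66QC was lower than Control at day 2 (limma, adjusted p = 0.0305). At day 0 the A75QN arrays already lay below all Atro and all A66QC arrays, as was so for pairs of groups in 35.3% and 19.2% of probe sets. The difference from Atro was -0.20 (limma, adjusted p = 0.0835); it passed without the 6 arrays of outlying spread (adjusted p = 0.0107) and with array weights (0.000291), and was -0.04 under quantile normalization (adjusted p = 0.61).

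With time Debcl rose in Control heads from a mean of 8.47 at day 0 to 8.78 at day 14, by 0.31 ± 0.07 (limma, adjusted p = 0.00113). In Atro heads it rose by 0.24 ± 0.07 (limma, adjusted p = 0.012), a call lost without Atro day 0 replicate 2 (adjusted p = 0.111). In A66QC heads the change over the same 14 days was -0.01 (95% interval -0.16 to 0.14), and in A75QN heads 0.04 (95% interval -0.11 to 0.19). The A75QN arrays first went up, by 0.26 ± 0.07 from day 0 to day 2 (limma, adjusted p = 0.00992), and then down by 0.22 to day 14 (limma, adjusted p = 0.0398), with the arrays of days 2 and 14 apart as in 33.4% of all probe sets. The first of these calls was lost without A75QN day 0 replicate 3 (adjusted p = 0.0541), and the second without A75QN day 2 replicate 1, 2 or 3 (adjusted p = 0.0726, 0.0901 and 0.121) and without A75QN day 14 replicate 2 or 3 (0.179 and 0.109).

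The tests of the difference in change bear on whether the lines moved apart between days 2 and 14. The change in A75QN was lower than that in Control by -0.39 ± 0.11 (limma, adjusted p = 0.0367) and lower than that in Atro by -0.41 ± 0.11 (limma, adjusted p = 0.0358). In A66QC the corresponding differences did not pass the test. The first result was lost without replicate 2 of Control at day 2 or at day 14, and the second without Atro day 2 replicate 2 or any Atro day 14 replicate. Both were lost without any A75QN day 2 replicate and without A75QN day 14 replicate 2 or 3, with adjusted p between 0.0621 and 0.170 over all these arrays. The first was also lost without the 6 arrays of outlying spread (-0.24, adjusted p = 0.179) and with the compared groups alone (adjusted p = 0.0553).

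The ligand gene egr was read by a bright probe set, above 81.3% of probe sets in mean level, and by a dim one with a mean of 6.53. On the bright probe set the day 14 Control arrays read 8.46, 8.52 and 8.40, and the Atro arrays 8.61, 8.58 and 8.64. The A66QC arrays read 8.30, 8.28 and 8.27, and the A75QN arrays 8.20, 8.13 and 8.14. No genotype overlapped another at day 14, and the order from high to low was Atro, Control, A66QC and A75QN. Atro and Control arrays stood apart in 21.1% of all probe sets. The shares were 39% and 33.9% for A66QC and A75QN against Control, 36.9% and 34.7% against Atro, and 25.3% for A66QC and A75QN.

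In A75QN heads egr was lower than in Control at day 14 by -0.31 ± 0.07 (limma, adjusted p = 0.00539), or 0.809 times Control. In A66QC the difference was -0.18 ± 0.07 and missed the threshold (limma, adjusted p = 0.0947), and it depended on the setting: it passed without the 6 arrays of outlying spread (-0.15, adjusted p = 0.0275) and was -0.01 under quantile normalization (adjusted p = 0.967). Against Atro, egr was lower by -0.33 ± 0.07 in A66QC (limma, adjusted p = 0.00551) and by -0.45 ± 0.07 in A75QN (limma, adjusted p = 7.55e-05). Under quantile normalization the A75QN difference from Control was -0.18 (limma, adjusted p = 0.00807) and the A66QC difference from Atro was -0.18 (limma, adjusted p = 0.0137).

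The dim egr probe set was also lower in the polyQ lines, and its differences passed against Control and not against Atro. Its Control arrays at day 14 read 6.46, 6.65 and 6.59, its A66QC arrays 6.33, 6.30 and 6.22, and its A75QN arrays 6.42, 6.33 and 6.20. Both polyQ groups were near background on it and lay below Control, by -0.28 ± 0.09 in A66QC (limma, adjusted p = 0.0207) and -0.25 ± 0.09 in A75QN (limma, adjusted p = 0.0459). Against Atro, whose arrays read 6.39, 6.41 and 6.51, its differences of -0.15 and -0.12 did not pass (adjusted p = 0.311 and 0.402). The means of the 12 groups on the 2 probe sets had a Pearson correlation of 0.712, which describes probe sets that share the same arrays.

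Before the switch, at day 0, egr in A66QC was already lower than in Atro, by -0.25 ± 0.07 (limma, adjusted p = 0.0323), with arrays at 8.50, 8.32 and 8.47 against 8.75, 8.65 and 8.64. This call was lost under quantile (adjusted p = 0.316) and cyclic loess normalization (adjusted p = 0.174), on the dim probe set (adjusted p = 0.533) and without Atro day 0 replicate 1 or 3 (adjusted p = 0.152 and 0.0799) or A66QC day 0 replicate 1 or 2 (0.0546 and 0.19). As deposited no line differed from Control in egr at day 0 or day 2. Under quantile normalization egr was higher than in Control in A75QN at day 0 (0.17, adjusted p = 0.0209) and, at day 2, in Atro, A66QC and A75QN (0.22, 0.18 and 0.17; adjusted p = 0.00161, 0.0134 and 0.015). On the dim probe set as deposited none of these differences passed. Its day 2 means were 6.49 in Control and 6.56, 6.44 and 6.55 in Atro, A66QC and A75QN. At day 0 they were 6.72 in Control and 6.69 in A75QN.

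Over time egr fell in A75QN heads, whose arrays read 8.54, 8.62 and 8.54 at day 0 and 8.43, 8.47 and 8.49 at day 2. It dropped by 0.31 from day 2 to day 14 (limma, adjusted p = 0.00348) and by 0.41 from day 0 to day 14 (limma, adjusted p = 4.25e-05). The second probe set fell by 0.37 from day 0 to day 14 in A75QN (adjusted p = 0.000825), by 0.32 in A66QC (adjusted p = 0.00451) and by 0.24 in Atro (adjusted p = 0.0271). On the bright probe set the A66QC, Control and Atro changes over those days were -0.15, -0.05 and -0.07, and none passed the test as deposited. Under quantile normalization the falls in A66QC (-0.17, adjusted p = 0.005) and Control (-0.12, adjusted p = 0.042) passed too, and under cyclic loess normalization those in all 4 genotypes did. The A75QN change from day 2 to day 14 was lower than the Control change by -0.45 ± 0.11 (limma, adjusted p = 0.0124), a call lost without Control day 2 replicate 2 (adjusted p = 0.0658). On the dim probe set neither that difference (adjusted p = 0.199) nor the A75QN change from day 2 to day 14 (adjusted p = 0.0608) passed.

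**Figure D2:**
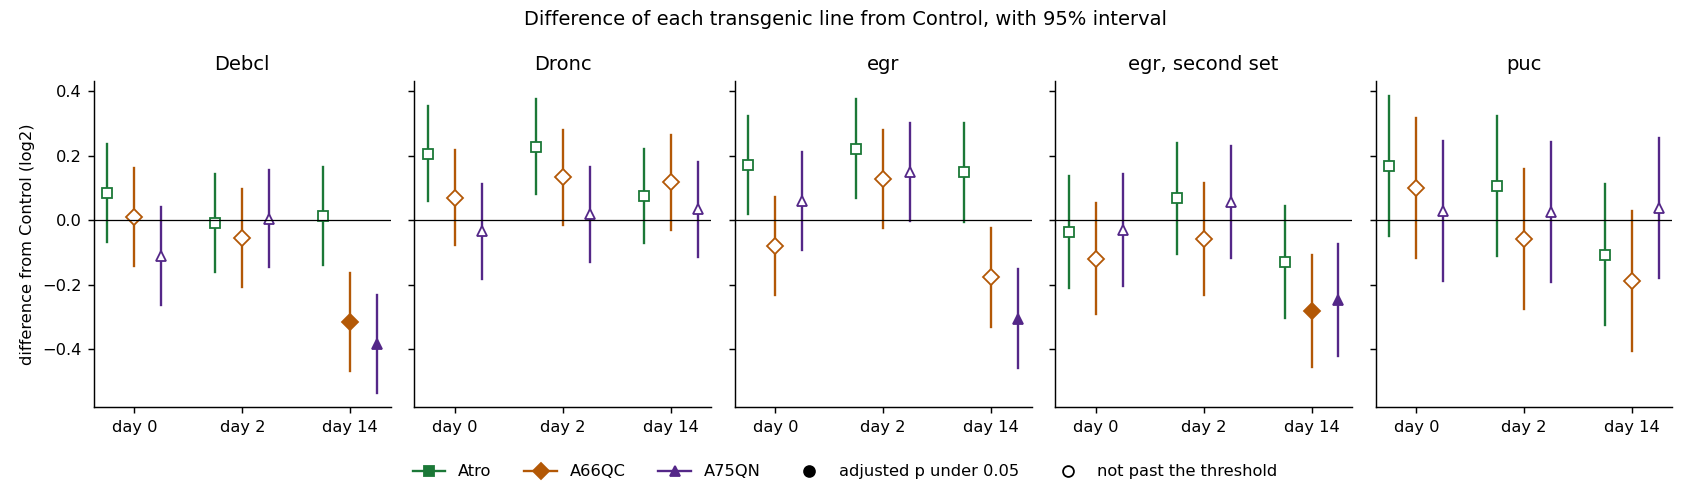
Difference of Atro, A66QC and A75QN from Control (log2) with its 95% interval for Debcl, Dronc, puc and both egr probe sets, by day; filled symbols have an adjusted p under 0.05. The filled symbols stand at day 14, for Debcl in both polyQ lines, for egr in A75QN and for the second egr set in both.

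puc, the JNK phosphatase and target gene, was the brightest of the 4 genes, with a mean of 9.05 that exceeded 87.6% of probe sets. At day 14 its arrays read 9.10, 9.44 and 9.36 in Control and 9.26, 9.22 and 9.10 in Atro. They read 9.18, 9.07 and 9.09 in A66QC and 9.34, 9.28 and 9.40 in A75QN. The transgenic lines overlapped Control, with differences of -0.11 ± 0.11, -0.19 ± 0.11 and 0.04 ± 0.11, none of which passed the test. Against Atro, puc in A75QN was higher under quantile normalization (0.28, adjusted p = 0.00873), a difference that did not pass as deposited.

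These intervals bound what could have been missed: at day 14 puc in A75QN lay between -0.18 and 0.26 of Control, and in A66QC between -0.41 and 0.03. The A66QC arrays all lay below the A75QN arrays, by -0.23 ± 0.11, which did not pass (limma, adjusted p = 0.228); arrays of these groups stood apart in 25.3% of all probe sets. At days 0 and 2 the differences of the lines from Control ranged from -0.06 to 0.17 and none passed.

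puc rose late in time. From day 2, when the Control arrays read 8.94, 8.84 and 8.89, it rose in Control by 0.41 ± 0.11 (limma, adjusted p = 0.00786). In A75QN it rose from 8.97, 8.96 and 8.81 by 0.43 ± 0.11 (limma, adjusted p = 0.00471). The increases of 0.20 in Atro and 0.28 in A66QC did not pass as deposited. The A66QC increase (limma, adjusted p = 0.0761) passed under quantile normalization (adjusted p = 0.00189) and without the 6 arrays of outlying spread (0.000972). No difference in change in puc between a line and Control passed. From day 0 to day 14 the rise was 0.38 ± 0.11 in Control (limma, adjusted p = 0.00539) and 0.39 ± 0.11 in A75QN (limma, adjusted p = 0.0043). The late Control rise missed the threshold without Control day 14 replicate 2 (adjusted p = 0.0755), and the rise since day 0 without Control day 0 replicate 1 (adjusted p = 0.0817) and without the 6 arrays of outlying spread (adjusted p = 0.107, difference 0.20).

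Dronc, the initiator caspase, was the dimmest of the 4 genes, with a mean of 7.02. Its highest group was Atro at day 0, with 7.29, 7.15 and 7.38, and its lowest Control at day 2, with 6.92, 6.75 and 6.98. In Atro heads it reached 6.95, 7.06 and 6.92 by day 14, below all day 0 arrays of that line, a drop of 0.30 (limma, adjusted p = 0.00161). Arrays of these days stood apart in 42% of all probe sets in Atro. Control, A66QC and A75QN changed by -0.16, -0.12 and -0.10 over those days, none past the threshold. Under quantile normalization all 4 genotypes fell, by 0.16 to 0.29 (limma, adjusted p = 7.44e-05 to 0.022).

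At day 0 Dronc was lower in A75QN, at 7.05, 7.03 and 7.01, than in Atro by -0.24 ± 0.07 (limma, adjusted p = 0.0272). That call was lost under quantile normalization (adjusted p = 0.0871) and without Atro day 0 replicate 1 or 3 (adjusted p = 0.0943 and 0.177) or A75QN day 0 replicate 1, 2 or 3 (0.0529, 0.0784 and 0.0857). At day 2 the A75QN difference from Atro was -0.21 and missed the threshold as deposited (limma, adjusted p = 0.176). It passed under quantile normalization (adjusted p = 0.0194) and without the 6 arrays of outlying spread (0.0327). Against Control, Dronc in the 3 lines differed by 0.03 to 0.12 at day 14, with intervals from -0.11 to 0.27 over the lines. As deposited none passed, while under quantile normalization Dronc was higher in Atro than in Control at days 0 and 2 (0.18 and 0.24) and higher in A66QC than in Control at day 14 (0.20). For Atro and Control at day 2, where the same-numbered arrays deviated together, Dronc differed by 0.23 as deposited (adjusted p = 0.0784) and passed with the replicate number as a block (adjusted p = 0.0456).

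Counted together, the 4 genes gave 3 passing tests of 12 against Control at day 14, all lower, where 12.6% of all probe-set tests passed and 8.62% passed as lower. All 4 genes lay above the median in mean level, exceeding from 60.4% (Dronc) to 87.6% (puc) of probe sets. Among the probe sets above the median, adjusted alone, 2772, 1871 and 456 passed as lower in A66QC, A75QN and Atro. Over all probe sets fewer did (2582, 1839 and 435), so 8.62% is below the lower share of the brighter set. Under quantile normalization 5 tests of the 4 genes passed, 2 higher (Dronc in A66QC and egr in Atro) and 3 lower. The background was 12.2%. At days 0 and 2 limma passed 0 of 12 each, with 2 at an unadjusted p under 0.05 on each day, where 7.42% and 3.92% of all probe-set tests passed. The polyQ lines against Atro gave 6 of 24, all lower (background 6.4%, lower 5.17%), and A66QC against A75QN 0 of 12 with 1 at an unadjusted p under 0.05 (background 5.69%). Under quantile normalization the passing tests were 3 higher and 0 lower at day 0, 4 and 0 at day 2, 1 and 5 against Atro, and 2 and 0 for A66QC against A75QN, with backgrounds of 10.7%, 9.31%, 7.75% and 13.5%. Against Atro, as deposited, more probe sets also passed as lower in the brighter set than in all, on each day. At day 14 these were 1082 against 969 in A66QC and 1309 against 1225 in A75QN. The 5.17% is therefore also below the lower share of the brighter set. The 4 genes were not matched in level to these backgrounds.

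Day 2 against day 0 gave 1 of 16 (background 18.9%), day 14 against day 2 gave 4 of 16, 2 higher and 2 lower (background 16.1%), and day 14 against day 0 gave 6 of 16, 4 higher and 2 lower (background 29.9%; Control 31.5%, Atro 29.5%, A66QC 27.2%, A75QN 31.3%). Under quantile normalization these were 3 higher and 6 lower, 4 higher and 4 lower, and 4 higher and 7 lower, where 26.4%, 22.7% and 35.9% of all probe-set tests passed. Over the same 14 days the measured muscle markers moved most, 3 of 4 falling in A66QC and 4 of 4 in the other genotypes, with medians from -1.34 to -1.80, and 3 or 4 of 4 haemocyte markers rose. The part of that shift in the age results was not tested. Differences of change passed in 2 of 24 tests against Control (background 2.01%) and 1 of 16 against Atro (background 1.17%).

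The spans of the 4 genes were moderate. The difference between the highest and the lowest group mean was 0.39 for Dronc, 0.44 for Debcl, 0.51 for puc and 0.52 for egr, against a median of 0.23 over all probe sets. Of 11 neighbouring pairs in each gene's order of group means, the arrays stood apart in 1 pair for Debcl, between Control day 14 and A75QN day 2, in 2 for egr and in none for Dronc and puc. Correlations between the 4 genes over the 12 group means ran from -0.30 (Debcl and Dronc) to 0.55 (Dronc and egr). The groups share arrays and genotypes, so these are descriptions.

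The genes whose group means were most like those of Debcl were CG18508 (Pearson r = 0.954 over 12 groups), alpha-Man-IIa (0.932) and blo (0.928). For egr they were FBXO11 (0.879), tamo (0.876) and nrv1 (0.869). For puc they were CHMP2B (0.944), TH1 (0.940) and CG13123 (0.931), and for Dronc Neurochondrin (0.917), GstE3 (0.916) and Prat2 (0.902). These genes led a ranking of 11981 genes, and no test was made of it.

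Of 49 further genes listed for these pathways, 40 had a probe set. At day 14 none was higher and 9 were lower in A66QC than in Control, where 4.17% and 13.8% of all probe sets were called higher and lower. In A75QN 4 were higher and 7 lower (background 5.8% and 9.8%), and in Atro none was higher and 4 were lower (background 1.86% and 2.32%). Their median difference was -0.15 in A66QC, -0.04 in A75QN and -0.03 in Atro, against 0.01, 0.02 and -0.00224 over all probe sets. Over the probe sets of mean level above the median alone, it was -0.12, -0.09 and -0.04. The pathway genes were not matched in level to either set. Under quantile normalization the counts were 4 higher and 5 lower in A66QC, 12 and 5 in A75QN, and 1 and 4 in Atro, against 7.76% and 6.97%, 7.31% and 6.21%, and 4.54% and 3.71% of all probe sets.

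**Figure D3:**
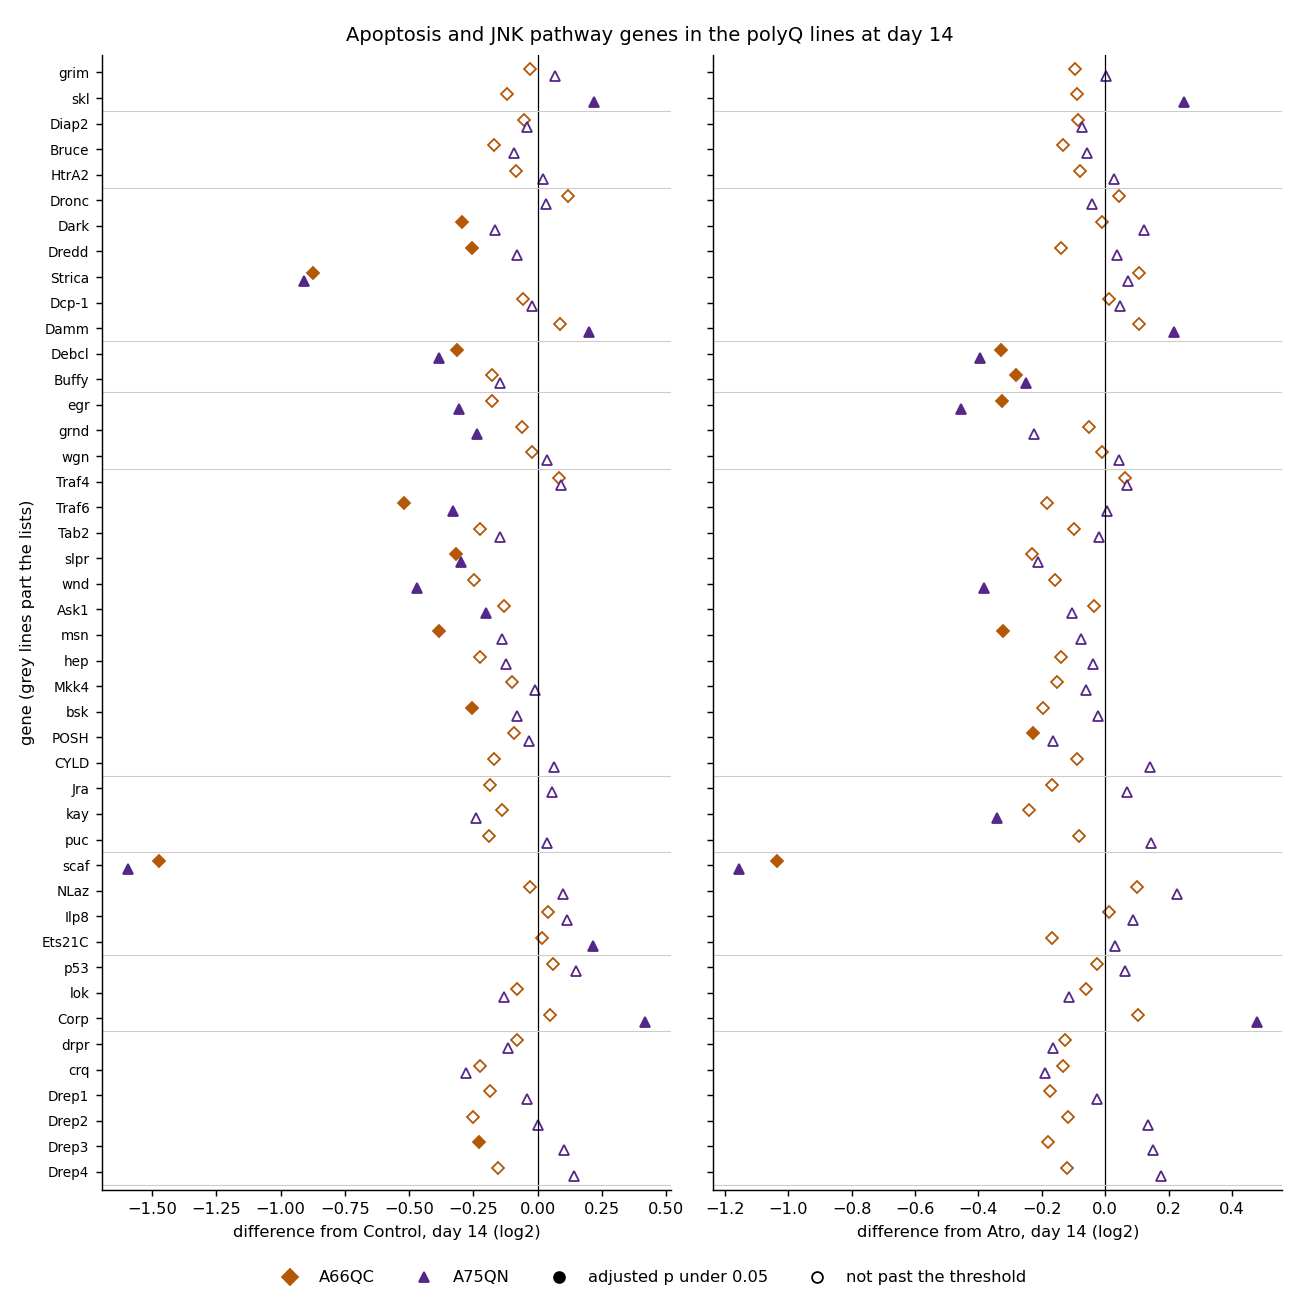
Difference (log2) of A66QC and A75QN from Control (left) and from Atro (right) at day 14 for the 44 measured genes of the pathway lists, the 4 described genes included; filled symbols have an adjusted p under 0.05. Strica and scaf lie farthest to the left against Control, scaf also against Atro, and Corp in A75QN farthest to the right.

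Among the genes that start cell death, rpr and hid were not analysed, grim was near background in all groups and passed no test, and skl was higher in A75QN at day 14. Its level there was 7.23 ± 0.12 (SD, n = 3) against 7.01 ± 0.10 in Control, a difference of 0.22 ± 0.07 (limma, adjusted p = 0.0415), and against Atro the difference was 0.25 (adjusted p = 0.0291). In the caspase list, the adaptor gene Dark was lower at day 14 in Atro by -0.29 and in A66QC by -0.30 (limma, adjusted p = 0.0144 and 0.00431). Under quantile normalization the A66QC call for Dark held at -0.15. Dark was also lower in A66QC before the switch, by -0.42 (adjusted p = 0.000192). Dredd, the caspase of the immune Imd pathway, was lower in A66QC by -0.26 (adjusted p = 0.00682), a call lost under quantile normalization (-0.10, adjusted p = 0.171). Damm, of the same list, went the other way: at day 14 it was higher in A75QN than in Atro, by 0.22 (limma, adjusted p = 0.0308).

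Strica is a further caspase gene. In Control its level went from 6.19 ± 0.03 (SD, n = 3), near background, at day 0 to 7.15 ± 0.04 at day 2 and 7.24 ± 0.07 at day 14. In Atro, A66QC and A75QN it was near background on every day, with group means from 6.15 to 6.36. Strica thus stood above background in Control at days 2 and 14, and its differences between lines rest on groups near background; the fitted day 14 differences from Control were -0.98 in Atro and -0.88 and -0.91 in A66QC and A75QN (limma, adjusted p = 7.34e-14, 3.98e-13 and 1.4e-13).

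Buffy, the Bcl-2 family partner of Debcl, was lower at day 14 than in Atro by -0.28 in A66QC and -0.25 in A75QN (limma, adjusted p = 0.0226 and 0.0361). No line differed from Control in Buffy on that day, and it fell from day 0 to day 14 in all 4 genotypes, by 0.36 to 0.51. In A75QN it was higher than in Control at day 2, by 0.31 (adjusted p = 0.0114), and then dropped by 0.61 to day 14 (adjusted p = 4.02e-07). Among inhibitor genes, Diap2, Bruce and HtrA2 passed no test against Control or Atro at day 14.

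Of the 2 receptor genes of Eiger, wgn differed from Control in no line, and grnd was lower in A75QN at day 14 by -0.24 (limma, adjusted p = 0.0498), a call lost under quantile normalization (adjusted p = 0.26). In the kinase cascade, Traf6, an adaptor gene, was lower than in Control at day 14 in Atro (-0.33), A66QC (-0.52) and A75QN (-0.33). Its adjusted p values were 0.00263, 2.49e-06 and 0.0016. Of the kinase genes, msn was lower in A66QC (-0.38) and wnd in A75QN (-0.47), with adjusted p of 0.00337 and 0.00171. Under quantile normalization these calls held at -0.23 for msn, -0.31 for wnd and -0.19 for Traf6 in A75QN. At day 0, before the switch, wnd was already lower in A75QN than in Control, by -0.33 (limma, adjusted p = 0.0472). Traf6 was already lower in A66QC than in Control on that day, by -0.26 (limma, adjusted p = 0.0162). Of the transcription factor genes, kay was lower in A75QN than in Atro, by -0.34 (adjusted p = 0.0151). The JNK gene bsk was lower in A66QC by -0.25 (adjusted p = 0.028), a call lost under quantile normalization (-0.06), and it fell with age in every genotype, by 0.56 to 0.72 from day 0 to day 14.

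Of 4 measured JNK target genes other than puc, scaf moved most. It encodes a secreted serine protease homologue and is induced by JNK in embryos and imaginal discs. In Control its level went from 9.67 ± 0.19 (SD, n = 3) at day 0 to 10.38 ± 0.12 and 10.74 ± 0.16 at days 2 and 14. In A66QC and A75QN it also rose to day 2, to 10.23 ± 0.23 and 10.10 ± 0.01, and was then at 9.27 ± 0.17 and 9.15 ± 0.09 at day 14.

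The day 14 differences of scaf from Control were -1.47 ± 0.11 in A66QC and -1.59 ± 0.11 in A75QN (limma, adjusted p = 3.58e-12 and 5.07e-13), and from Atro -1.04 and -1.16 (adjusted p = 2.32e-08 and 2.09e-09). Atro itself was lower than Control by -0.44 (adjusted p = 0.0106). All 5 differences passed under each of 9 settings, which did not include single arrays left out. Between days 2 and 14 the change in scaf was lower than that in Control by -1.32 in A66QC and -1.31 in A75QN. The JNK target gene Ets21C was higher in A75QN by 0.22 (adjusted p = 0.0496), a call lost under quantile normalization (adjusted p = 0.0652), and NLaz and Ilp8 did not differ from Control at day 14.

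**Figure D4:**
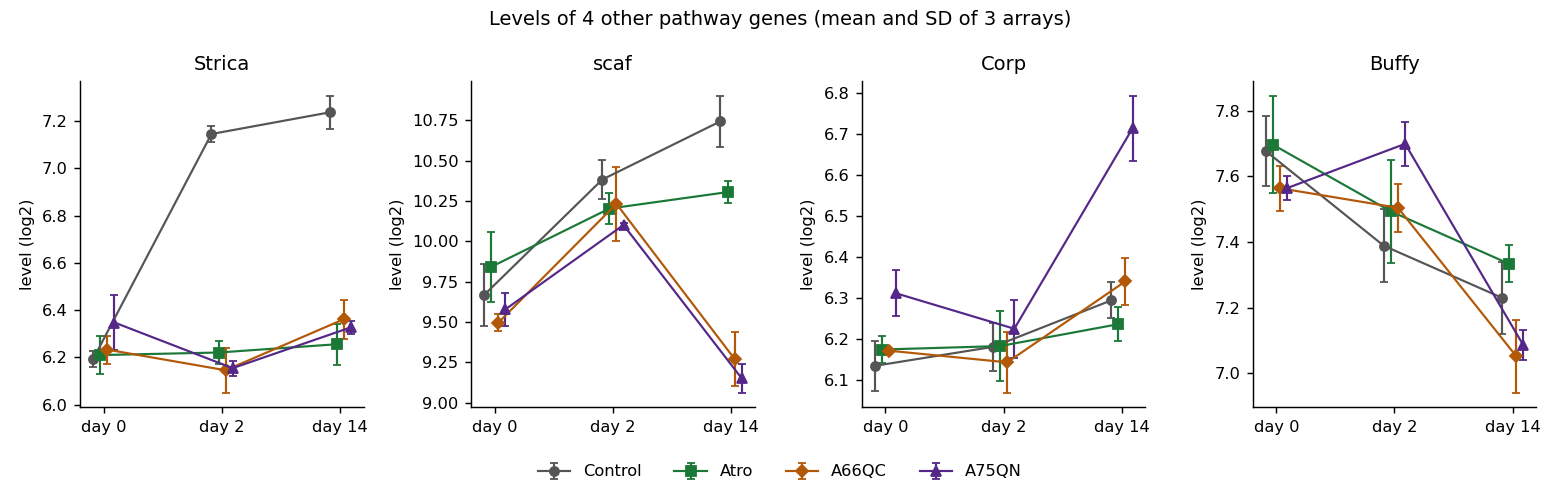
Level (log2, mean and SD of 3 arrays) of Strica, scaf, Corp and Buffy by day and genotype; the 4 genes were picked for the plot after their values were seen. Strica departs from about 6.2 in Control only, scaf drops between days 2 and 14 in A66QC and A75QN, and Corp is highest in A75QN at day 14.

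Corp, a p53 target and regulator, was near background in all groups but A75QN at day 14, where it read 6.71 ± 0.08 (SD, n = 3) against 6.29 ± 0.04 in Control. The difference was 0.42 ± 0.05 (limma, adjusted p = 3.48e-07), against Atro 0.48 (adjusted p = 4.42e-08), and A66QC was lower than A75QN by -0.37 (adjusted p = 5.98e-06). Before the switch, at day 0, Corp was already higher in A75QN than in Control by 0.18 ± 0.05 (limma, adjusted p = 0.0308). Both of those groups were near background. p53 itself did not differ from Control at day 14 as deposited, at 0.06 in A66QC and 0.15 in A75QN, while quantile normalization gave 0.21 and 0.26 (limma, adjusted p = 0.00202 and 0.000225).

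Marker genes of head cell types were set beside these results. The 6 measured photoreceptor markers were bright, with a mean level of 12.2 to 12.6 on every array of day 14. None of the 6 was called in A66QC against Control at day 14, and 1 (chp, -0.30) was lower in A75QN. Of 6 neuronal markers, 4 were lower in A66QC (elav, nSyb, ChAT and VAChT, -0.27 to -0.72) and 1 in A75QN (nSyb, -0.42), and of 4 glial markers 3 and 2 were lower, moody by -0.84 and -0.72. Fat body markers were called higher and lower in 1 and 0 of 5 in Atro, 1 and 0 in A66QC and 0 and 1 in A75QN, haemocyte markers in 0 and 1, 1 and 1, and 0 and 2 of 4, and muscle markers in 0 and 0, 1 and 0, and 0 and 0 of 4. These marker counts are for the values as deposited. Over all probe sets, 4.17% were called higher and 13.8% lower than Control in A66QC at day 14. The shares were 5.8% and 9.8% in A75QN and 1.86% and 2.32% in Atro. The haemocyte marker He and the fat body marker Fbp1 had means of 6.17 and 6.22 over all arrays, near background. In whole heads, fewer cells of a type and less RNA per cell cannot be told apart, and the part of cell composition in the results for Debcl, egr and scaf was not tested.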

How the data were processed

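RNA from adult fly heads was measured on 36 single-colour Affymetrix arrays, 3 in each of 12 groups of genotype and day, grouped by the sample labels. The authors deposited normalized log2 expression values for 18952 probe sets, and R 2.11.0 is the tool named in the submitters' processing notes; the sources used here do not give the background correction, normalization and summarization behind the log2 values. The 183 control probe sets were left out, and 18769 were tested without a further filter. Gene symbols came from GEO's platform annotation table, in which 13647 probe sets had 1 symbol, 402 several and 4720 none; per gene, the probe set with 1 symbol and the highest mean was used.

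Group means were fitted in limma 3.58.1 (R 4.3.3) with 24 residual degrees of freedom, and 40 contrasts were each adjusted by Benjamini-Hochberg over all probe sets, with a threshold of 0.05. The fit was tested on simulated data. The 4 measured genes are named throughout. Other pathway genes are named by a rule that takes up to 3 per list and kind of comparison, those of smallest adjusted p past the threshold, and lists of pathway and marker genes were written by hand. The members and lists were chosen with earlier results of these data known. Likeness is Pearson's r over 12 group means.

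Other settings tried were renormalization by quantiles or by cyclic loess, array weights, a prior with trend and robust estimation, only the brighter probe sets, the second egr probe set, the replicate number as a block, the compared groups alone, the set without the 6 arrays of outlying spread, and each array left out in turn. limma's default method for array weights stopped before it converged, so the gene-by-gene method was used; this was chosen after the data were seen, and both are reported. Plots came from matplotlib 3.10.9 (Python 3.11.15). The replicate numbers did not pair the arrays: of 54 pairs of same-numbered arrays of 1 day, 14 had deviations from the group means correlated over 0.1 (range -0.57 to 0.68). Atro and Control at day 2 were the exception, with all 3 pairs over that value, and the blocked value is given there.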

Additional observations from a re-analysis of the deposited data

Results flagged for a closer look

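For 2 of the 4 genes the change from day 2 to day 14 differed between genotypes by the test of that difference. In Debcl the A75QN change was lower than the Control change by -0.39 ± 0.11 (limma, adjusted p = 0.0367), and all 3 A75QN arrays of day 14 lay below all 3 of day 2, as A75QN arrays of these days stood apart in 33.4% of all probe sets. Against the Atro change the Debcl difference was -0.41 ± 0.11 (limma, adjusted p = 0.0358). In egr the A75QN change was lower than the Control change by -0.45 ± 0.11 (limma, adjusted p = 0.0124). The A75QN arrays are common to all 3 results and the Control arrays to a pair of them, and arrays without which each is lost are named beside the Debcl and egr results in the report.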

How the results depend on the processing

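Of 160 differences computed for the 4 genes, 23 passed as deposited. Each difference was checked under the 10 other settings, of which the second egr probe set applied to egr alone. It was also checked with each array of its compared groups left out. Of the 23, 8 passed in all these checks and 15 were lost in at least 1, while 54 others passed only in another setting. No difference that passed as deposited changed sign, and none that passed in a setting had the opposite sign to its deposited value. Some that passed only in another setting changed sign in a further setting without passing, as egr in A66QC against Control at day 2. Counts that moved by more than 1.5 times, or from 0, are given here, with the deposited count first; smaller moves are left out. Lines against Control at day 0 (0): quantile 3, loess 3, array weights 2, weights by REML 2, without the arrays of outlying spread 1. At day 2 (0) these gave 4, 4, 3, 3 and 1, the trended prior 1 and the replicate block 1. At day 14 (3): quantile, loess, REML and the set without outlying arrays each 5. PolyQ lines against Atro (6): weights 12, REML 14, second egr probe set 3, without outlying arrays 10. A66QC against A75QN (0): quantile, loess, weights and without outlying arrays 2 each, groups alone 1. Day 2 against day 0 (1): quantile 9, loess 8, weights 8, REML 7, brighter probe sets 3, without outlying arrays 3, and trended prior, replicate block and groups alone 2 each. Day 14 against day 2 (4): quantile 8, loess 7, weights 7. Day 14 against day 0 (6): quantile 11, loess 12. Differences of change from Control (2): second egr probe set, without outlying arrays and groups alone 1 each. From Atro (1): REML 5, and quantile, loess, brighter probe sets, weights, without outlying arrays and groups alone 2 each. With 1 array left out, the 10 counts in this order ranged over 0 to 1, 0 to 2, 2 to 3, 4 to 7, 0 to 0, 0 to 3, 3 to 5, 5 to 6, 0 to 2 and 0 to 2. The cause of these moves was not tested. As deposited, A66QC against Control at day 14 gave 783 probe sets higher and 2582 lower over the whole array, and 1457 and 1309 after quantile normalization; A75QN gave 1088 and 1839, and 1372 and 1165. The replicate block ended no call of the 4 genes and added that for Dronc in Atro against Control at day 2 and in Control from day 0 to day 2. Single arrays were left out for the 4 genes only. The REML weights were added after the data were seen. Precision is limited by 3 arrays per group, and probe sets near the array median, such as the second of egr, are limited by background signal.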

Other observations

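Several genes of these pathways moved with age in all 4 genotypes. In single genotypes 27.2% to 31.5% of all probe sets were called between days 0 and 14, and the share called in all 4 is not given here. The GAPDH 3′ to 5′ difference also rose over these days in all 4 genotypes, and its part in these changes was not tested. From day 0 to day 14, lok, the Chk2 kinase of the DNA damage response, rose by 0.75 in Control and by 0.67, 0.63 and 0.64 in Atro, A66QC and A75QN (limma, adjusted p from 1.57e-10 to 6.29e-09). p53 rose by 0.17, 0.32, 0.28 and 0.45 in the same order (adjusted p = 0.0276, 8.67e-05, 0.000481 and 3.06e-07), and the Eiger receptor gene grnd by 0.35, 0.32, 0.36 and 0.24 (adjusted p from 0.00093 to 0.0255). kay, the fly Fos gene, rose in Control by 0.45 and in Atro by 0.41 (adjusted p = 0.000202 and 0.000671), while the increases of 0.24 in A66QC and 0.23 in A75QN missed the threshold.

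Of the 40 further pathway genes measured, 17 rose and 8 fell in Control over these 14 days, 9 rose and 9 fell in Atro, 11 and 8 in A66QC, and 15 and 7 in A75QN. Over all probe sets 31.5%, 29.5%, 27.2% and 31.3% were called. Drep2, Drep3 and Drep4, of the DNA fragmentation factor family, fell in all 4 genotypes. The effector caspase gene Dcp-1, named after its values were seen, fell in all 4 as well.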
